A study of Mus musculus with 12 samples.

Results

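Chemokines and their receptors were followed in mouse colon, in animals labelled KO for the sphingosine-1-phosphate receptor S1PR4 and in animals labelled WT. Members were taken by gene symbol: all Ccl and Cxcl ligands, all Ccr and Cxcr receptors, the Cx3c and Xc ligands and receptors, and the atypical receptors Ackr1 to Ackr4. This rule found 57 genes, 35 ligands and 22 receptors, among the 30263 genes of the colon tables. A mean of at least 10 reads over the 6 colon libraries made a gene expressed, which left 48 members, 29 ligands and 19 receptors. All 48 were among the 17195 genes that were abundant enough to be tested.

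The KO colons came from mice labelled S1PR4 KO, of the C57BL/6 strain, and the WT colons from mice of that strain labelled WT, with 3 libraries in each group. Both groups had received the carcinogen azoxymethane (AOM, 10 mg/kg) at day 0 and dextran sodium sulfate (DSS, 0.5%), an agent that injures the colon lining, in drinking water. DSS ran over days 1 to 6, 21 to 27 and 47 to 52, and whole colon was taken at day 84, so no untreated colon was available as a baseline. The labels do not name separate animals behind the replicate numbers. Xist and Ddx3y, given below, were high in different libraries of each group, so a group's libraries do not all come from a single animal. Whether each library is a separate animal is not stated. The p-values measure only the spread between these libraries, part of which may be technical. The series also holds CD8+ T cells sorted from PyMT mammary tumors of S1PR4 KO and WT mice, but the tables for those cells list 357 genes and 0 of the members.

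Chemokines are small secreted proteins that bind G protein-coupled receptors and direct the movement of leukocytes along their gradients. In the colon, inflammatory ligands call in neutrophils and monocytes after damage, while homeostatic ligands hold lymphocytes in lymphoid follicles or draw plasma cells to the epithelium. Atypical receptors bind chemokines without the usual signalling, and some of them take chemokines out of the tissue. S1PR4 is itself a receptor of leukocytes, for the lipid sphingosine-1-phosphate.

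The targeted gene S1pr4 did not have the direction that the labels imply. It stood at 19.7, 21.4 and 16.1 CPM (reads of a gene scaled to a common library size) in the libraries labelled KO, against 7.22, 6.29 and 3.13 CPM in those labelled WT (replicates 1, 2 and 3, an order kept for all values below). Every library labelled KO was above every library labelled WT. The fitted log2 ratio was 1.78 ± 0.34 (SE), with an adjusted p of 0.829 by edgeR's quasi-likelihood test and 0.0043 by DESeq2. Whether the deleted part of the gene lies within the counted exons is not given in the sources used here, and every direction below rests on the labels as deposited. Total counts ran between 7304082 and 8652561 per library. Xist, the RNA of the inactive X chromosome, was at 591 and 515 CPM in KO replicates 2 and 3 and at 545 CPM in WT replicate 1, and below 6.8 CPM in the remaining libraries. The Y-linked gene Ddx3y was at 81.1 CPM in KO replicate 1, at 63.3 and 68.6 CPM in WT replicates 2 and 3, and between 0 and 0.118 CPM elsewhere. Markers of epithelium were high in every library, with summed levels of 1318, 1407 and 1355 CPM in KO and 1257, 1437 and 1338 CPM in WT colons. WT replicate 1 was the highest library for 3 keratins of squamous epithelium. Krt5 was at 0.132 to 0.383 CPM in KO colons and at 125, 0.134 and 0.125 CPM in WT colons. Krt10 had 6.51, 8.73 and 8.44 CPM in KO colons, against 101, 9.23 and 7.63 CPM in WT colons. Krt14 had 5.36, 32.9 and 19.3 CPM in KO colons, against 92.0, 4.68 and 3.25 CPM in WT colons. It was thus also raised in KO replicates 2 and 3.

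No chemokine or receptor was called different between KO and WT colons, which with 3 libraries a group does not show that levels were equal. By edgeR's quasi-likelihood test with Benjamini-Hochberg adjustment over all tested genes, 0 of 48 members passed the threshold of 0.05, and 0% of all tested genes did. The smallest adjusted p was 0.829 among members and 0.641 among all genes. At an unadjusted p under 0.05 there were 2 members, the receptor Ccr1 and its ligand Ccl9, beside 5.06% of all tested genes. That count of 2 became 9 without KO replicate 1, 5 without WT replicate 1, 1 without WT replicate 2 or KO replicate 3, and 0 without WT replicate 3 or KO replicate 2. Over all genes the same count was 870 with all libraries and 3673 without KO replicate 1. It was 1007 without WT replicate 1, 528 without WT replicate 2 and 445 without KO replicate 3. Without WT replicate 3 or KO replicate 2 it was 307 or 430. DESeq2 and limma-voom also called 0 members, with 4 and 15 members at an unadjusted p under 0.05, while over all genes DESeq2 called 14 and limma-voom 0. Over all genes, 1024 had an unadjusted p under 0.05 in DESeq2 and 4526 in limma-voom.

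Fitted levels were higher in KO colons for 31 members and lower for 17, where 49% of all tested genes were higher. The median fitted log2 ratio was 0.19 over the members and -0.0045 over all tested genes. Dropping KO replicate 2 or KO replicate 1 gave the members a median of 0.05 or 0.07, and dropping WT replicate 1 or KO replicate 3 one of 0.33 or 0.36. On the log2(CPM + 0.5) scale the members' median KO minus WT difference was -0.10 within the high-Xist libraries and 0.30 within the low-Xist libraries. With all libraries it was 0.18 over the 29 ligands, of which 20 were higher, and 0.20 over the 19 receptors, of which 11 were higher. A ratio above 1 on the log2 scale was found for 5 members, the ligands Cxcl1, Cxcl2, Cxcl5 and Ccl3 and the receptor Cxcr2, and for 2.31% of all tested genes. For 0 members was every KO library above every WT library, against 4.55% of all tested genes. For 1 member, Cx3cl1, was every KO library below every WT library, against 5.04% of all tested genes.

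**Figure D1:**
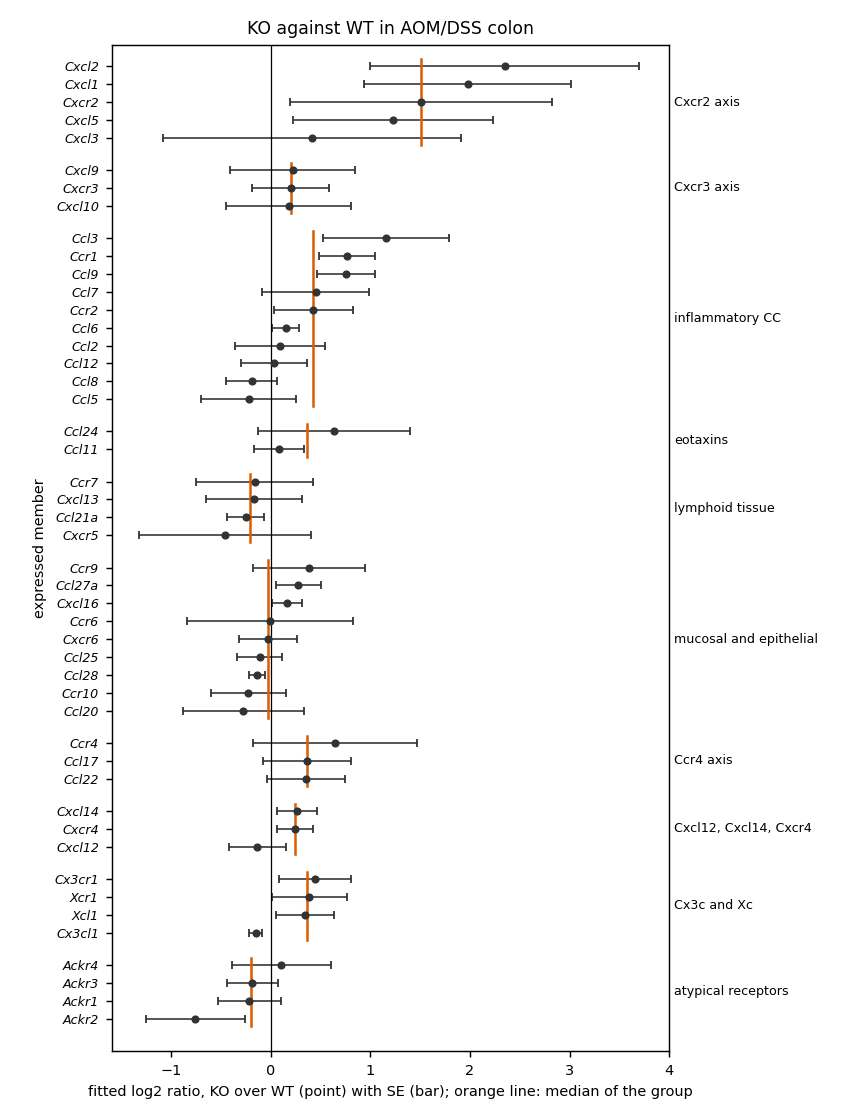
Fitted log2 ratio of KO over WT (points) with its SE (bars) for the expressed members, 1 receptor not shown, grouped by role, with the median of each group as an orange line. The Cxcr2 axis has the highest median, 1.51, and also the widest bars, and no member passed the adjusted threshold.

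Per length of exon, the colon's chemokine RNA was led by ligands of resting mucosa and myeloid cells. Ccl6, a mouse ligand of Ccr1, averaged 61.3 ± 2.99 in KO and 55.3 ± 10.0 in WT colons, in RPKM (CPM per kilobase of exon; SD, n = 3 each). Cx3cl1, or fractalkine, a ligand anchored in the membrane of epithelial and endothelial cells, averaged 41.4 ± 2.19 RPKM in KO and 46.0 ± 1.78 RPKM in WT colons. Ccl28, the mucosal ligand of Ccr10, averaged 36.2 ± 3.17 RPKM in KO and 39.9 ± 1.71 RPKM in WT colons. These were the 3 highest ligands over the 6 libraries, and Ccl6 and Cx3cl1 were dense enough in reads (above 0.3 counts per exon base) that their folds may be compressed.

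The 3 highest receptors were those of homeostatic ligands. Cxcr4, the receptor of Cxcl12, averaged 15.03 ± 2.29 RPKM in KO and 12.7 ± 1.83 RPKM in WT colons. Ackr3, an atypical receptor that takes up Cxcl12, averaged 11.4 ± 2.99 RPKM in KO and 12.99 ± 3.51 RPKM in WT colons. Cx3cr1, the receptor of Cx3cl1 and a mark of intestinal macrophages, averaged 11.0 ± 5.27 RPKM in KO and 8.09 ± 2.003 RPKM in WT colons. In both orders, neighbours overlapped in their ranges over libraries. At the bottom stood the ligand Cxcl3, at 0.864 ± 0.896 RPKM in KO and 0.637 ± 0.974 RPKM in WT colons, and the receptor Ccr9, at 0.250 ± 0.133 RPKM in KO and 0.192 ± 0.0938 RPKM in WT colons.

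**Figure D2:**
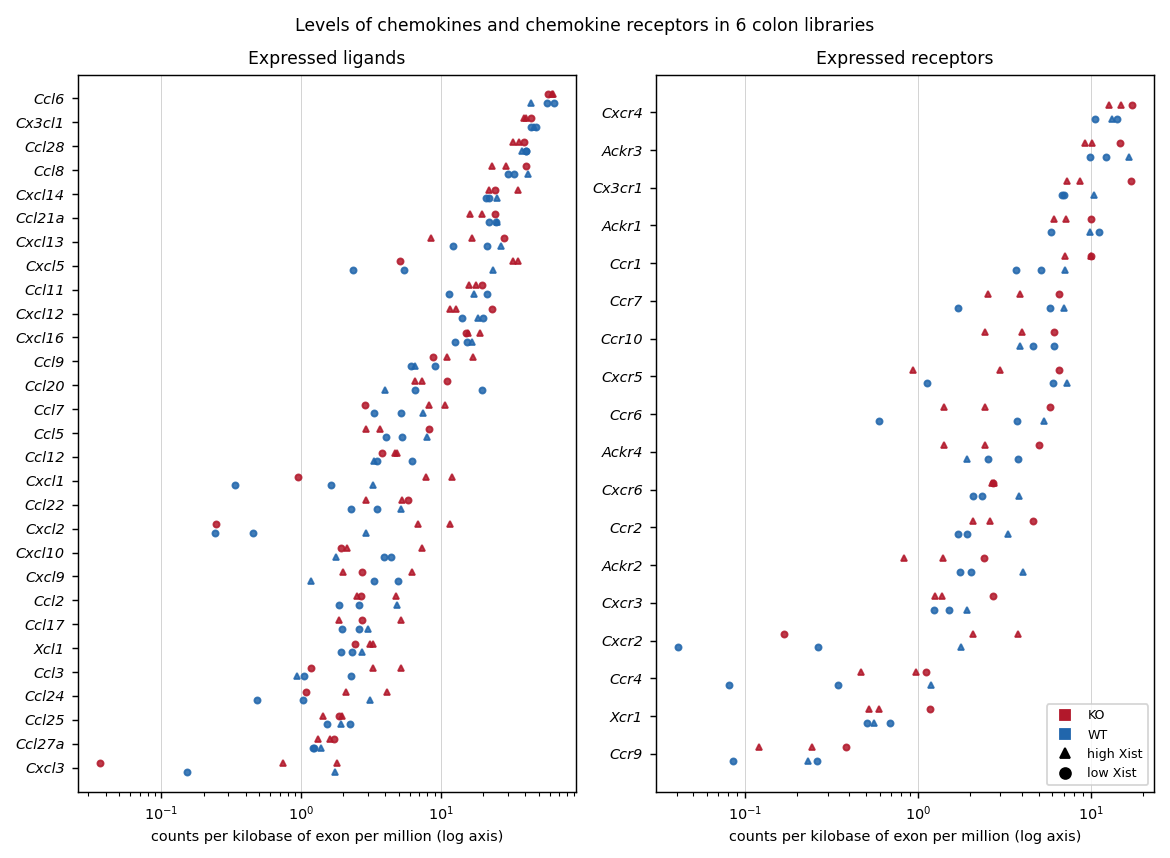
Level of each expressed member in each colon library, in RPKM on a log axis, for 29 ligands (left) and the receptors (right, 1 not shown), with KO points above WT points and triangles for libraries with high Xist. Ccl6 and Cxcr4 lead their panels, Cxcl1, Cxcl2, Cxcl3 and Cxcr2 have the widest spread, and Cxcl3 in WT replicate 3 is at 0 and not drawn.

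Among ligands, those of Cxcr2, the main receptor by which neutrophils follow chemokines, varied most between libraries. Their genes Cxcl5, Cxcl3, Cxcl1 and Cxcl2 lie on the plus strand of chromosome 5 in the order given, between 90759360 and 90905938 in build GRCm38. The windows around the starts of 3 of them are shown because these genes varied together between libraries, and that of Cxcl10, an interferon-induced ligand of Cxcr3 on the same chromosome, because it did not follow them. Each window holds 250 bases before and 50 after the start, from RefSeq on GRCm38.p6, written 5′ to 3′ along the gene's strand, with matches to the NF-kappaB consensus in capitals. The Cxcl1 window is chr5:90890995-90891294 (plus strand), that of Cxcl2 is chr5:90903649-90903948 (plus), that of Cxcl3 is chr5:90785851-90786150 (plus) and that of Cxcl10 is chr5:92348840-92349139 (minus).
Cxcl1: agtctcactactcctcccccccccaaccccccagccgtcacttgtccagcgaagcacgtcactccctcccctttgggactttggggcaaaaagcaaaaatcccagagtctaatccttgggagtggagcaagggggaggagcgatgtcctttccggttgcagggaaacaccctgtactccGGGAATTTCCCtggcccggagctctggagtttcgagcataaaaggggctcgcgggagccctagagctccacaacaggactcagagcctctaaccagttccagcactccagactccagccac
Cxcl2: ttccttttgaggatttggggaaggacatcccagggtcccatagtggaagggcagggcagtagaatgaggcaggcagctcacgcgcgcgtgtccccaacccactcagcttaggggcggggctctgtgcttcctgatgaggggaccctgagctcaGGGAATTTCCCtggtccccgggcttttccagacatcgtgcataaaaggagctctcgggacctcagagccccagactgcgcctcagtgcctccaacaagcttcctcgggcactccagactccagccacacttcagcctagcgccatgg
Cxcl3: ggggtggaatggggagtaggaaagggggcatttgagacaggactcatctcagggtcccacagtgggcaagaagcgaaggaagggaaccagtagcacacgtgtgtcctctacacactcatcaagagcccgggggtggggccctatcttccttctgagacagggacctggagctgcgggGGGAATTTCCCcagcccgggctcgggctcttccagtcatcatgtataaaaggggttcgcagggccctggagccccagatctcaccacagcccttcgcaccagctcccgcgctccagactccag
Cxcl10: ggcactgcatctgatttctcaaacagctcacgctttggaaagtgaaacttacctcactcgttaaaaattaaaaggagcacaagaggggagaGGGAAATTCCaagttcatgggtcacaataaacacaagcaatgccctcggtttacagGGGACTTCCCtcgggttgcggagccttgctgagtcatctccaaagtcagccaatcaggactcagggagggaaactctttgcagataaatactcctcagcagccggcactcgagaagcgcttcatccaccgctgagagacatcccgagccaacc
The capitals are the same 11 bases, GGGAATTTCCC, in Cxcl1, Cxcl2 and Cxcl3, beginning 71, 97 and 73 bases before their starts. That run occurs in 14 of the 32851 RefSeq windows of mouse genes. Past the start, these 3 windows share a run of 13 bases, CTCCAGACTCCAG, found in 4 of all windows.

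A window was given for 37 of the 48 expressed members. Searched on both strands, the NF-kappaB consensus matched in 9 of these 37 and in 4.51% of all windows, and besides the 4 genes shown the matches were in Ccl9, Ccl20, Ccl27a, Ccr6 and Ackr2. The AP-1 motif TGANTCA matched in 6 of 37 and in 7.81% of all windows, and the interferon-response motif GAAANNGAAA in 2 of 37, Cxcl10 and Cxcl14, and in 3.44% of all windows. TATAAA matched in 12 of 37 and in 13.6% of all windows. A match describes letters in the window and is not evidence of binding. Among the members without a window were Ccl2, Ccl5, Ccl7, Ccl11, Ccl24, Cxcl5, Cxcl16, Ccr7, Ccr10 and Cxcr5.

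Cxcl1, a neutrophil attractant of epithelium and stroma, had 1.79, 22.6 and 14.7 CPM in KO colons, against 6.15, 3.08 and 0.625 CPM in WT colons. Cxcl2, a related attractant of myeloid cells, had 0.511, 23.9 and 14.2 CPM in KO colons, against 6.03, 0.936 and 0.500 CPM in WT colons. KO replicates 2 and 3 were the highest for both genes, KO replicate 1 lay within the WT range for both, and the groups overlapped. The fitted log2 ratio was 1.98 ± 1.04 for Cxcl1 (unadjusted p = 0.105) and 2.35 ± 1.35 for Cxcl2 (unadjusted p = 0.131; adjusted p = 0.829 for each, edgeR).

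Cxcl5, a neutrophil attractant made mostly by epithelium, had 9.45, 61.1 and 66.7 CPM in KO colons, against 43.9, 10.2 and 4.38 CPM in WT colons. Cxcl3 had 0.128, 6.35 and 2.59 CPM in KO colons, against 6.15, 0.535 and 0 CPM in WT colons. The receptor Cxcr2 had 0.511, 6.35 and 11.6 CPM in KO colons, against 5.44, 0.802 and 0.125 CPM in WT colons. In each of these 3 genes KO replicates 2 and 3 and WT replicate 1 were the 3 highest libraries, so the groups overlapped. The fitted log2 ratios were 1.23 ± 1.00 for Cxcl5, 0.41 ± 1.50 for Cxcl3 and 1.51 ± 1.32 for Cxcr2, and none of the 3 had an unadjusted p under 0.05 (edgeR). A few exonic stretches of Cxcr2 of about 200 bases have at least 95% identity with other genes, so some of its reads may be shared.

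All 5 expressed genes of the Cxcr2 axis had a positive fitted ratio, with a median of 1.51 on the log2 scale. That median was 3.46 without WT replicate 1, against 0.86 without KO replicate 3 and 0.98 without WT replicate 3. Its ligands made up 1.23%, 11.4% and 11.2% of all counts of expressed ligands in KO colons, against 6.63%, 1.62% and 0.621% in WT colons. In all 5 genes every library with high Xist lay above every library with low Xist, as for 8.29% of all tested genes. Within the 3 high libraries the median difference of KO minus WT was 0.61 on the log2(CPM + 0.5) scale, and within the 3 low libraries it was 0.16. Cxcl3 was lower in KO within both sets, at -0.53 in the high and -0.20 in the low libraries, and Cxcl2 was at -0.25 in the low libraries. With Xist status as a covariate the fitted median was 0.55.

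Some markers of neutrophils moved with these genes. S100a9, a calcium-binding protein abundant in neutrophils, had 1.79, 23.0 and 26.01 CPM in KO colons, against 13.6, 2.68 and 0.875 CPM in WT colons. Csf3r, the receptor of granulocyte colony-stimulating factor, had 8.81, 17.9 and 24.6 CPM in KO colons, against 14.9, 5.35 and 3.88 CPM in WT colons. S100a8 had 0.894, 18.8 and 16.5 CPM in KO colons, against 7.93, 2.54 and 0.500 CPM in WT colons. Retnlg, too low to be tested, had 0.894, 5.16 and 5.31 CPM in KO colons, against 1.18, 0.535 and 0.125 CPM in WT colons. Mmp8, also untested, had 1, 12 and 9 reads in KO colons, against 4, 3 and 1 reads in WT colons. Ly6g, the surface marker, did not follow them, with 51.6 to 56.2 CPM in KO and 57.8 to 64.0 CPM in WT colons. The granule gene Camp had 0.766, 0.132 and 0.136 CPM in KO colons, against 0.237, 0.267 and 0.625 CPM in WT colons. These values rest on 6, 1 and 1 reads in KO and 2, 2 and 5 reads in WT colons, too few to give a direction. The granule gene Ngp was at 0 in every library except WT replicate 3, with 0.125 CPM from 1 read. The summed level of the 8 markers, much of it Ly6g, was 69.4, 120.5 and 125.4 CPM in KO colons, against 102.3, 71.4 and 64.0 CPM in WT colons, and of the 4 markers abundant enough to be tested 3 had a positive ratio and 0 passed the threshold. In whole tissue, more cells of a type and more RNA per cell cannot be told apart. The part of neutrophil number, of Xist status or of squamous epithelium in these values was not tested. Of the squamous keratins, Krt14 was raised in KO replicates 2 and 3 as well as in WT replicate 1.

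**Figure D3:**
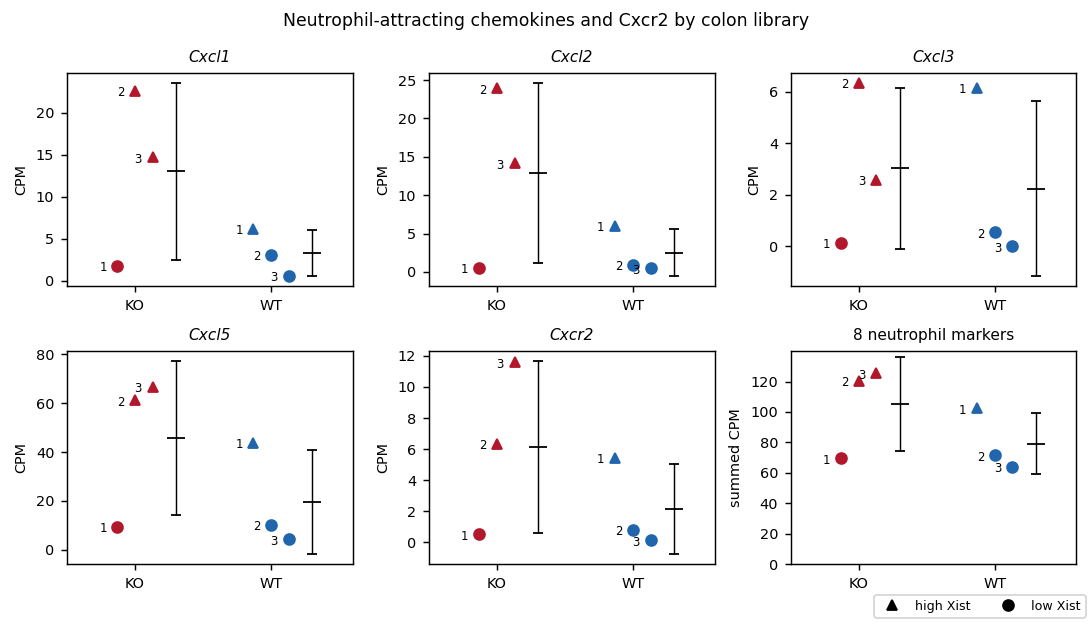
CPM of 4 ligands of Cxcr2, of Cxcr2 and of the sum of 8 neutrophil markers in each colon library, KO left and WT right, with replicate numbers beside the points, triangles for high Xist, and mean ± SD as bars. KO replicates 2 and 3 and WT replicate 1 are high in every panel, and KO replicate 1 lies among the low WT libraries.

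Inflammatory CC chemokines and their receptors, which act on monocytes, macrophages and T cells, had 11 expressed members. Of these, 9 had a positive ratio and 2 a negative one, beside 31 of all 48 members and 49% of all tested genes with a positive ratio. They had a median of 0.43 on the log2 scale and 0 past the adjusted threshold. The median was 0.14 when KO replicate 2 was dropped, 0.22 for KO replicate 1, 0.26 for WT replicate 3 and 0.70 for WT replicate 1.

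Ccr1, a receptor of monocytes, macrophages and neutrophils, had the smallest p of all members. It had 28.6, 28.4 and 20.02 CPM in KO colons, against 20.1, 14.6 and 10.5 CPM in WT colons. Its ligand Ccl9 had 26.6, 52.0 and 33.8 CPM in KO colons, against 19.99, 27.8 and 18.6 CPM in WT colons. In both genes one KO library lay just below the highest WT library, so the groups met without separating. The fitted log2 ratios were 0.77 ± 0.28 for Ccr1 (unadjusted p = 0.0329) and 0.76 ± 0.29 for Ccl9 (unadjusted p = 0.0397; adjusted p = 0.829 for each, edgeR). Over the alternative settings the adjusted p of either gene went no lower than 0.0951. Within the high-Xist libraries the KO minus WT difference was 0.24 for Ccr1 and 1.05 for Ccl9, and within the low-Xist libraries it was 1.18 and 0.22 in that order, on the log2(CPM + 0.5) scale.

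Ccl3, a ligand of Ccr1, had 0.894, 2.51 and 3.95 CPM in KO colons, against 0.710, 0.802 and 1.75 CPM in WT colons. Ccr2, which brings monocytes from blood into tissue, had 31.5, 14.0 and 17.7 CPM in KO colons, against 22.6, 12.97 and 11.5 CPM in WT colons. Both overlapped between groups, and Ccl3 averaged 13.5 reads a library, at which counting error is large. The fitted log2 ratios were 1.16 ± 0.63 for Ccl3 and 0.43 ± 0.40 for Ccr2. The ratio of Ccr2 was 0.01 without KO replicate 1 and that of Ccl3 was 0.64 without KO replicate 3.

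The other ligands of this group lay closer to 0. Ccl6 had 104.0, 111.4 and 114.5 CPM in KO colons, against 79.7, 115.0 and 103.3 CPM in WT colons, a fitted log2 ratio of 0.15 ± 0.14. Ccl2, Ccl7 and Ccl12, the ligands of Ccr2, had ratios of 0.09 ± 0.45, 0.45 ± 0.54 and 0.03 ± 0.33. Ccl5, which attracts T cells, and Ccl8 had the 2 negative ratios, -0.22 ± 0.48 and -0.19 ± 0.25. The 8 markers of macrophages and monocytes summed to 579, 438 and 413 CPM in KO colons, against 514, 424 and 458 CPM in WT colons, with 7 of 8 ratios positive and 0 past the threshold. Their part in the values of Ccr1 and Ccr2 was not tested.

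The interferon-induced ligands Cxcl9 and Cxcl10 and their receptor Cxcr3, of activated T cells, had positive fitted ratios that were each smaller than their SE. Cxcl9 had 8.17, 18.8 and 5.99 CPM in KO colons, against 3.55, 10.0 and 14.8 CPM in WT colons. Cxcl10 had 4.34, 16.5 and 4.77 CPM in KO colons, against 4.02, 9.90 and 8.75 CPM in WT colons. KO replicate 2 was the highest library and WT replicate 1 the lowest for both ligands, so both groups covered much of the same range. The fitted log2 ratios were 0.22 ± 0.63 for Cxcl9, 0.18 ± 0.63 for Cxcl10 and 0.20 ± 0.38 for Cxcr3.

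Chemokines and receptors of lymphoid tissue had negative fitted ratios in all 4 expressed members, with a median of -0.21 on the log2 scale and 0 past the threshold. Cxcl13, which gathers B cells into follicles, had 32.7, 19.3 and 9.80 CPM in KO colons, against 30.8, 24.5 and 14.1 CPM in WT colons. Its receptor Cxcr5 had 22.0, 9.92 and 3.13 CPM in KO colons, against 24.4, 20.2 and 3.75 CPM in WT colons. Ccr7, which guides lymphocytes and dendritic cells into lymphoid tissue, had 13.02, 7.67 and 5.04 CPM in KO colons, against 14.0, 11.5 and 3.38 CPM in WT colons. KO replicate 3 and WT replicate 3 were the 2 lowest libraries for all 3 genes, and the groups overlapped. The fitted log2 ratios were -0.17 ± 0.48 for Cxcl13, -0.46 ± 0.86 for Cxcr5 and -0.16 ± 0.58 for Ccr7. Ccl21a, the ligand of Ccr7 on lymphatic vessels, had 21.2, 17.1 and 14.2 CPM in KO colons, against 21.9, 21.4 and 19.3 CPM in WT colons, a ratio of -0.25 ± 0.19. Ccl21a has near-identical copies in the genome, so its count is uncertain.

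B cell markers followed the same libraries. Their summed level over 8 genes was 323, 140 and 59.0 CPM in KO colons, against 306, 257 and 57.9 CPM in WT colons, with 8 of 8 fitted ratios negative and 0 past the threshold. Ccr6, the receptor of Ccl20 on B cells and T cells, had 13.5, 5.69 and 3.27 CPM in KO colons, against 12.5, 8.69 and 1.38 CPM in WT colons, a ratio of -0.01 ± 0.83. For the 4 lymphoid members, dropping KO replicate 3 or WT replicate 1 gave a median of 0.05 or 0.04, dropping KO replicate 1 gave -0.63 and dropping WT replicate 3 gave -0.48. Within the high-Xist libraries it was -1.12 and within the low-Xist libraries 0.89, on the log2(CPM + 0.5) scale. The part of B cell content in these values was not tested.

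**Figure D4:**
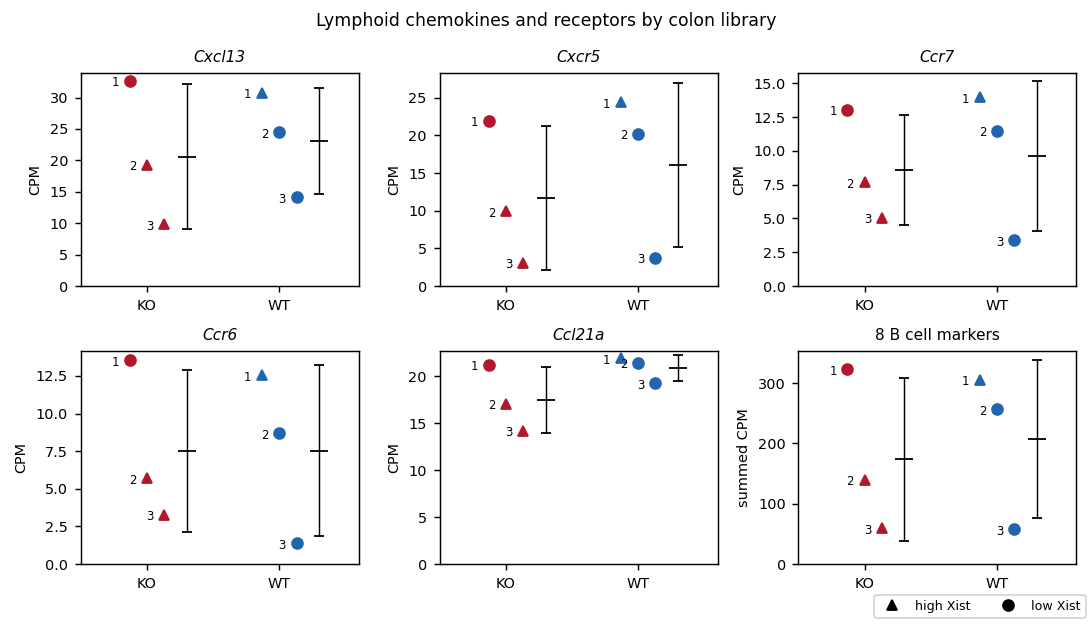
CPM of lymphoid chemokines and receptors, of Ccr6 and of the sum of 8 B cell markers in each colon library, KO left and WT right, with replicate numbers, triangles for high Xist, and mean ± SD as bars. Cxcr5, Ccr7, Ccr6 and the B cell markers are lowest in KO replicate 3 and WT replicate 3, and the groups overlap.

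Ccl28, a ligand of the mucosal lining, had 191, 160 and 175 CPM in KO colons, against 184, 198 and 198 CPM in WT colons, and KO replicate 1 lay within the WT range. Its fitted log2 ratio was -0.14 ± 0.08 (unadjusted p = 0.128). Cxcl16, a membrane-bound ligand of Cxcr6, had 45.8, 57.5 and 47.0 CPM in KO colons, against 50.2, 46.1 and 38.1 CPM in WT colons, a ratio of 0.16 ± 0.15. Ccl27a, a ligand of Ccr10 known from skin, had 4.09, 3.84 and 3.13 CPM in KO colons, against 3.31, 2.94 and 2.88 CPM in WT colons, a ratio of 0.27 ± 0.23. Near-identical copies of Ccl27a make that count uncertain.

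Over the 9 expressed mucosal members 3 ratios were positive and 6 negative, with a median of -0.03. Ccl20, which calls Ccr6-positive cells to the epithelium, spanned 9.26 to 15.7 CPM in KO and 5.68 to 28.1 CPM in WT colons, with WT replicate 2 the highest and WT replicate 1 the lowest library. The receptors Ccr10 of plasma cells, Cxcr6 of resident T cells and Ccr9, the gut-homing receptor for Ccl25, had ratios of -0.22 ± 0.38, -0.03 ± 0.29 and 0.38 ± 0.57. Ccl25 had a ratio of -0.11 ± 0.22. Parts of the exons of Ccr9 (21.7%) and Cxcl16 (18.3%) overlap those of other genes, and strand-specific counting is not stated.

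Cx3cl1 was the single member whose groups did not overlap. It had 172, 160 and 155 CPM in KO colons, against 181, 188 and 174 CPM in WT colons, and KO replicate 1 lay just below WT replicate 3. The fitted log2 ratio was -0.15 ± 0.06 (unadjusted p = 0.0529; adjusted p = 0.829, edgeR). Its receptor Cx3cr1 had 76.7, 38.9 and 33.0 CPM in KO colons, against 46.8, 31.6 and 30.9 CPM in WT colons. KO replicate 1 alone lay above the WT range for Cx3cr1, whose ratio was 0.44 ± 0.36 and became -0.02 without that library.

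Xcl1, a ligand made by activated T and natural killer cells, had 1.28, 1.72 and 1.63 CPM in KO colons, against 1.42, 1.204 and 1.00 CPM in WT colons. Of its exon bases, 18.7% overlap those of another gene, and strand-specific counting is not stated. The ratio of Xcl1 was 0.35 ± 0.29, and that of its receptor Xcr1, a mark of cross-presenting dendritic cells, was 0.39 ± 0.38. The 6 dendritic cell markers also had positive ratios, with a median of 0.26, 0 past the threshold and their highest summed level, 94.6 CPM, in KO replicate 1. The other KO libraries had 59.0 and 57.2 CPM and the WT libraries 67.8, 53.8 and 49.8 CPM. Their part in the values of Xcr1 was not tested.

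The axis of Cxcl12, which retains leukocytes and stem cells through Cxcr4, was abundant and mixed in direction. Cxcr4 had 31.3, 27.2 and 23.0 CPM in KO colons, against 24.1, 25.5 and 19.3 CPM in WT colons, a fitted log2 ratio of 0.24 ± 0.18. Cxcl14, an epithelial and stromal ligand, had 44.3, 64.7 and 40.3 CPM in KO colons, against 46.1, 40.3 and 38.1 CPM in WT colons, a ratio of 0.26 ± 0.20 that became 0.03 when KO replicate 2 was dropped. Both genes overlapped between groups, and Cxcl12 itself had a ratio of -0.14 ± 0.29.

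Among the atypical receptors, Ackr3 had 49.7, 30.9 and 34.2 CPM in KO colons, against 56.2, 33.0 and 41.3 CPM in WT colons, a ratio of -0.19 ± 0.26. Ackr2, which removes inflammatory CC ligands at lymphatic vessels, had 7.53, 4.36 and 2.59 CPM in KO colons, against 12.7, 5.48 and 6.38 CPM in WT colons. Its ratio of -0.76 ± 0.50 (unadjusted p = 0.179) was the lowest of all members, and the groups overlapped. It was -0.28 with WT replicate 1 dropped, -1.23 with KO replicate 1 dropped, and 0.32 within the low-Xist libraries on the log2(CPM + 0.5) scale. Markers of lymphatic endothelium, 4 genes, summed to 256, 80.0 and 82.9 CPM in KO colons, against 302, 154 and 188 CPM in WT colons, with 4 of 4 ratios negative and 0 past the threshold. Their part in the values of Ackr2 was not tested. Ackr1, found on venules, and Ackr4, which removes Ccl19, Ccl21 and Ccl25, had ratios of -0.22 ± 0.31 and 0.11 ± 0.50. Of the exon bases of Ackr1, 25.7% overlap those of Cadm3 on the same strand, so its count is uncertain.

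Ccl17 and Ccl22, dendritic cell ligands of Ccr4, had ratios of 0.36 ± 0.44 and 0.35 ± 0.39, and Ccr4, a receptor of regulatory and type 2 helper T cells, one of 0.65 ± 0.83. The eotaxins Ccl11 and Ccl24, which attract eosinophils, had ratios of 0.09 ± 0.25 and 0.64 ± 0.76. None of these 5 genes had an unadjusted p under 0.05 (edgeR). Their SEs were larger than their ratios.

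Single libraries carried much of the variation of the members. KO replicate 1 was the highest library for 15 of the 48 members, against 14.6% of all tested genes, and among the 15 were Cx3cr1, Ccr2, Xcr1 and Ccr6. WT replicate 3 was the lowest library for 24 of the 48, against 13.8% of all tested genes. For 9 members every high-Xist library was above every low-Xist library, against 8.29% of all tested genes. They were Cxcl1, Cxcl2, Cxcl3, Cxcl5, Cxcr2, Ccl7, Ccl24, Cxcl16 and Xcl1. For 3 members, Ackr4, Ccl28 and Ccr10, every high-Xist library was below every low-Xist library, against 7.72% of all tested genes. These 6 libraries divide unevenly over the genotypes, with 2 KO and 1 WT library high in Xist and 1 KO and 2 WT libraries low.

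The KO and WT libraries stood in opposite order within the Xist sets for some members, as they did for many of all tested genes. For 15 members KO was below WT in every high-Xist library and above WT in every low-Xist library, against 20.2% of all tested genes. For 3 members, Ccl7, Cxcl9 and Cxcl10, the order was the other way in both sets, against 20.7% of all tested genes. With 3 libraries in a set, the set and the library cannot be told apart.

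**Figure D5:**
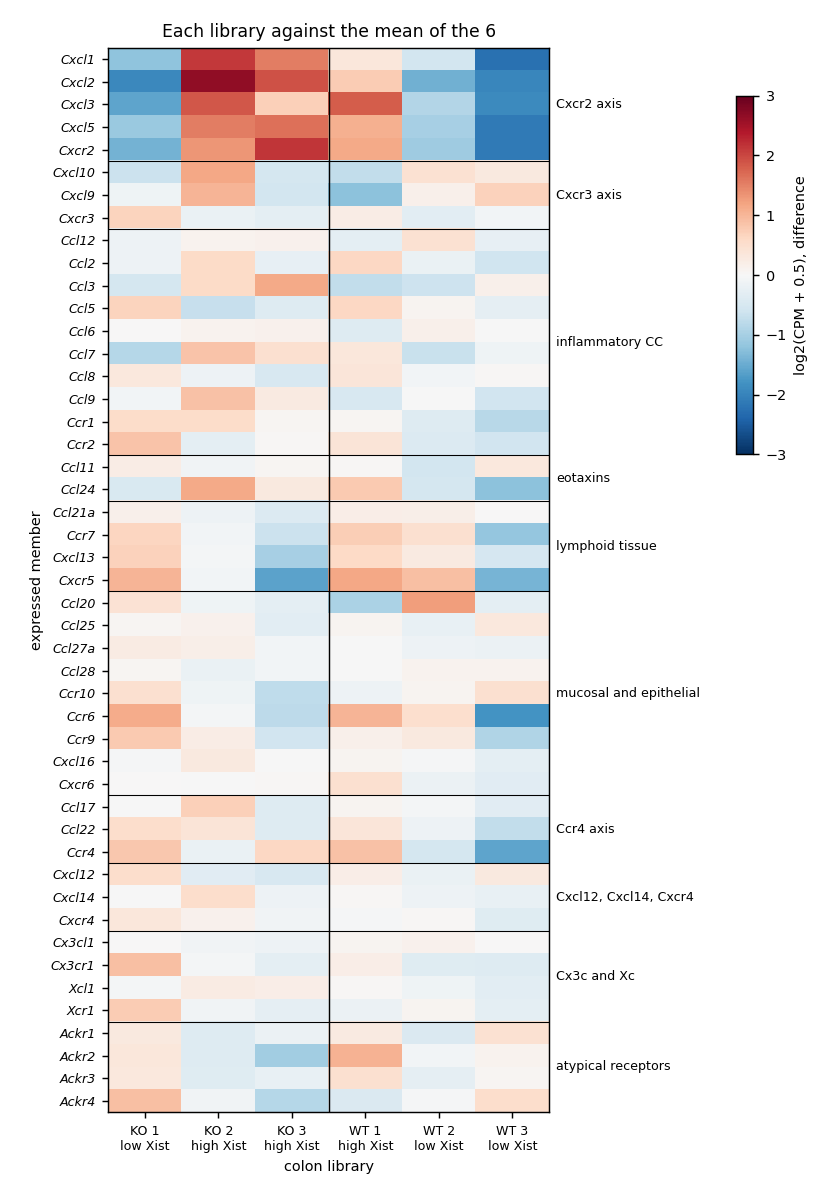
log2(CPM + 0.5) of each expressed member in each colon library minus the mean over the 6 libraries, with members grouped by role, 1 receptor not shown, KO libraries left and WT libraries right. The Cxcr2 axis is high in KO replicates 2 and 3 and WT replicate 1, and the lymphoid members Cxcl13, Cxcr5 and Ccr7 are low in KO replicate 3 and WT replicate 3.

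Other genes of chemokine signalling were taken from 3 lists of 43 genes in all: signalling parts below the receptors, enzymes and proteoglycans that process or hold chemokines, and chemokine-like genes outside the rule. Of the 41 tested, 26 had a positive and 15 a negative ratio, with a median of 0.06, and 0 passed the threshold. At an unadjusted p under 0.05 (edgeR) there was 1 of the 41, beside 5.06% of all tested genes. For 1 of the 41 every KO library was above every WT library, beside 4.55% of all tested genes. For 1 every KO library was below, beside 5.04%. Pik3cg, the kinase subunit through which these receptors make phosphoinositides, had 56.0, 47.0 and 66.04 CPM in KO colons, against 36.8, 37.0 and 25.5 CPM in WT colons. All its KO libraries were above all its WT libraries, with a ratio of 0.77 ± 0.20 (unadjusted p = 0.00762; adjusted p = 0.829, edgeR). Ptk2b, a focal adhesion-related kinase, had 162, 146 and 122 CPM in KO colons, against 173, 170 and 167 CPM in WT colons, without overlap, and a ratio of -0.25 ± 0.11.

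The remaining signalling genes named by the smallest p were Prex1, an exchange factor for Rac, at 0.34 ± 0.15, and Pik3r5, the regulatory partner of Pik3cg, at 0.41 ± 0.19. Among processing genes, Mmp9, a protease of neutrophils and macrophages, had 7.28, 58.5 and 37.0 CPM in KO colons, against 26.02, 11.1 and 3.88 CPM in WT colons. Its highest libraries were those of the Cxcr2 axis, and its ratio was 1.32 ± 0.90. Adam10 and Adam17, which shed Cx3cl1 and Cxcl16 from the membrane, had ratios of 0.19 ± 0.11 and 0.07 ± 0.08, and Ext1, which makes heparan sulfate, 0.12 ± 0.13. Among chemokine-like genes, Ccrl2, Gpr15, Cmklr1 and its ligand Rarres2 had ratios of 0.43 ± 0.26, 0.56 ± 0.35, -0.28 ± 0.34 and -0.12 ± 0.28.

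The 9 members below the expression threshold were Ccl4, Ccl19, Ccr8, Cxcl11, Cxcl15, Ccr3, Cxcl17, Ccl1 and Cxcr1. Ccl4, just outside, had 4, 9 and 21 reads in KO colons, against 3, 6 and 2 reads in WT colons, a mean of 7.5. Xcl1, just inside, had 10, 13 and 12 reads in KO colons, against 12, 9 and 8 reads in WT colons, a mean of 10.7.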

How the data were processed

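Values are read counts per Ensembl gene, deposited by the authors as whole numbers with no normalization, per the file headers. The submitters' processing notes list STAR, TopHat2, RSEM, HTSeq and DESeq2 and the builds mm10 and GRCm38, with no versions or roles, and filters and strand-specific counting are not given in the sources used here. Coordinates and exon lengths came from GENCODE vM21 (GRCm38), in which 99.8% of the 30263 colon IDs were found. KO was tested against WT, 3 libraries a group, in R 4.3.3 with the quasi-likelihood F test of edgeR 4.0.16, after filterByExpr and TMM scaling. P-values were adjusted over all 17195 tested genes with a threshold of 0.05. On simulated data the procedure was checked only for its recovery of known mean folds. CPM are counts over the TMM-scaled library size, and RPKM are CPM per kilobase of exon. Alternatives used DESeq2 1.42.0, limma 3.58.1 (voom with quality weights), other scalings and filters, a replicate block, Xist status (above 100 CPM or not) and leaving out each library. Totals of 7304082 to 8652561 counts gave the 48 expressed members a median of 77.0 reads, and SEs hold only counting error and the variation among these libraries. The members and lists were chosen with earlier results of these data known. Full statistics were planned by a rule for the 20 members with the smallest p and the 3 highest ligands and receptors per length. The rule also covered the members beside the expression threshold, and in each list of other pathway genes the 4 with the smallest p. Many of these are given without a p, and most of the pathway genes without values by library. The remaining members given by library (Cxcl3, Cxcl9, Cxcl10, Cxcl13, Ccl20, Ccr6, Ccr7 and Cxcr5) were chosen after their values were seen. The values of 1 receptor, counted in the totals, are not reported here.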

Additional observations from a re-analysis of the deposited data

Results flagged for a closer look

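For 18 members the KO and WT libraries stood in opposite order in the 3 libraries with high Xist and in the 3 with low Xist. In each set every KO library lay on one side of every WT library, and the side differed between the sets. The difference between the sets was not tested, and with 1 library of one genotype in each set it rests on few samples. The value given is the KO minus WT difference in the high set minus that in the low set, on the log2(CPM + 0.5) scale. For 15 members KO was below WT in the high set and above WT in the low set, as for 20.2% of all tested genes. The value was -3.28 for Cxcr5, -2.09 for Ccr7 and -1.93 for Cxcl13, of the lymphoid group, and -3.19 for Ccr6, of the mucosal group. It was -2.54 for Ccr4, -1.94 for Ccl5, -1.84 for Ccr2, -1.67 for Cx3cr1, -1.32 for Cxcr3 and -0.74 for Cxcr6. It was -2.09 for Ackr2, -1.20 for Ackr3, -1.07 for Cxcl12, -1.01 for Ccl8 and -0.69 for Ccl2. For 3 members, and 20.7% of all tested genes, KO was above WT in the high set and below WT in the low set, with 2.09 for Cxcl10, 2.01 for Cxcl9 and 0.77 for Ccl7.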

How the results depend on the processing

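Under the 14 alternatives with a test, 0 members passed the adjusted threshold, and the lowest adjusted p of any named member was 0.0951, in limma-voom. The number at an unadjusted p under 0.05, 2 as reported, was 5 with the replicate block, 4 in DESeq2, 15 in limma-voom, 0 with Xist status as a covariate, and 0 to 9 with 1 library left out. Over all genes that number, 870 as reported, was 1084 with the replicate block, 1024 in DESeq2 and 4526 in limma-voom. It was 567 with Xist status as a covariate and 307 to 3673 with 1 library left out. DESeq2 called 14 colon genes where edgeR called 0, among them S1pr4, with a log2 ratio of 1.78. Of the members averaging at least 50 counts, 17 of 32 had a positive ratio, and with 1 library left out 25 to 36 of 48 had one. Within the high-Xist libraries the median was -1.12 for the lymphoid group, -0.37 for the Ccr4 group and -0.10 for the Cx3c and Xc group, and within the low-Xist libraries 0.89 for the lymphoid, 0.98 for the Ccr4 and 0.37 for the atypical group. The eotaxin median was 0.94 in limma-voom and 0.10 to 0.90 with 1 library left out. With 1 library left out, signs reversed for Cx3cr1 (-0.024 to 0.68, below 0 without KO replicate 1), Ackr3 (-0.42 to 0.053, above 0 without WT replicate 1) and Rarres2 (-0.36 to 0.11, above 0 without WT replicate 3, at 0.04, or KO replicate 3), and 19 of 21 named members kept their sign under the 14 alternatives with a test. Within the low-Xist libraries signs also turned for Ccl3 (-0.30), Cxcl2 (-0.25), Ccl6 (-0.07), Ccl21a (0.06), Ackr2 (0.32) and Ackr3 (0.42), among others, and within the high-Xist libraries for Ccr2 (-0.51) and Cx3cr1 (-0.38), among others. The causes were not tested. Deviations of same-numbered KO and WT libraries had Pearson r of -0.04, 0.21 and -0.23, and those of differently numbered ones lay between -0.26 and 0.33. With such overlap the values cannot decide whether the numbers mark pairs. The numbers were not read as pairs, and the block changed no adjusted call. The planned results for CD8+ T cells could not be run, since their tables list 0 members. Depth limits the members with few reads, where counting error is a large part of the spread.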

Other observations

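Ppbp, a platelet gene whose product is cut to a ligand of Cxcr2, was at 0.255, 1.98 and 0.817 CPM in KO colons, against 56.2, 0.267 and 0.500 CPM in WT colons, and was too low elsewhere to be tested. The WT library that carried it, replicate 1, was also the one with Krt5, a keratin of squamous epithelium, at 125 CPM, where the KO libraries had 0.132 to 0.383 CPM and the other WT libraries 0.125 and 0.134 CPM. Il5ra, the interleukin-5 receptor of eosinophils, had 2.30, 6.61 and 6.81 CPM in KO colons, against 1.54, 1.87 and 0.375 CPM in WT colons. Every KO library was above every WT library, as for 4.55% of all tested genes. The fitted log2 ratio of Il5ra was 2.04 ± 0.65 (edgeR, unadjusted p = 0.0195, adjusted p = 0.829). Of the other eosinophil markers, Siglecf and Prg2 overlapped between groups, with ratios of 0.49 ± 0.40 and 0.09 ± 0.63. Prg2 was lowest in KO replicate 3, at 0.545 CPM, where Il5ra was highest. The eosinophil gene Epx was at 0 in every library except KO replicate 2, with 0.265 CPM, and the eotaxins had ratios of 0.09 and 0.64. Acta1, skeletal muscle actin, had 12.3, 17.9 and 11.2 CPM in KO colons, against 38.9, 33.8 and 42.4 CPM in WT colons, a ratio of -1.48 ± 0.21. Plasma cell markers, 4 genes, summed to 321, 325 and 309 CPM in KO colons, against 263, 299 and 306 CPM in WT colons. All KO sums were above all WT sums, KO replicate 3 only just above WT replicate 3. Of the 4 genes, only Jchain had every KO library above every WT library, as for 4.55% of all tested genes. Mzb1, Xbp1 and Tnfrsf17 overlapped between groups. Ccl28 and Ccr10, the ligand and receptor that place plasma cells, had negative ratios of -0.14 and -0.22. These genes were picked after their values were seen.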
